A study of Rattus norvegicus with 4 samples.

Results

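The genes described here are the cadherins and protocadherins of the rat brain after intracerebral hemorrhage, in which blood escapes into brain tissue. They were chosen by name, as the entries of the expression table whose symbol starts with Cdh or Pcdh, followed by optional lower-case letters and a number. This gave 74 entries with 73 symbols among 17853 genes, since Cdhr4 has 2 entries. Polyadenylated RNA was sequenced from the brain side of the bleeding (ipsilateral) and from the opposite side (contralateral) of rats with intracerebral hemorrhage. The 4 groups were ipsilateral and contralateral tissue at 21 months of age, called old, and ipsilateral and contralateral tissue at 13 months, called adult. All 4 groups carried the hemorrhage, so the contralateral tissue is the opposite side of an injured brain and not tissue of an uninjured rat. Each group was 1 library made from pooled RNA of rat brains, and the labels give no strain, sex, hemorrhage model or time after the bleeding. Comparisons of single libraries therefore carry no error and no test.

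Cadherins are membrane proteins that hold cells together through their extracellular cadherin repeats in the presence of calcium. Classical cadherins of type I and type II bind catenins inside the cell, which link them to actin, and in the brain they sit at adherens junctions and synapses. Protocadherins have other cytoplasmic domains and do not bind beta-catenin in this way. The delta protocadherins are encoded by scattered genes, whereas the alpha, beta and gamma protocadherins lie in clusters in which each variable exon has a promoter of its own. Neurons use different sets of these clustered isoforms, which serve in the recognition of their own neurites. Many promoters of the clusters carry a shared sequence element that is known to bind the insulator protein CTCF.

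The promoters of clustered isoforms are shown because the levels of these isoforms, given further on, differ widely although the isoforms come from neighbouring promoters. RefSeq promoter windows of build GRCr8, from 250 bases before to 50 after the gene start, were matched by symbol for 55 of the 73 symbols. The letters GGTGGCGCT, searched on both strands, were found in 12 of 14 beta promoters and in 0.457% of all 33469 promoters. A gamma pattern, CGCT followed by any base, TT, any pair of bases and CC, was found in 9 of 11 gamma promoters, in the 1 alpha promoter matched and in 0.705% of all promoters. Both patterns share the letters CGCT and were chosen after looking at these promoters, and none of the beta or gamma promoters held both. The last 100 bases before the gene start are given below for some matched isoforms, all on the + strand of chromosome 18. The pattern is in capitals where it lies in the window. Beta isoforms of high and of low level are shown, but only gamma isoforms of high level. Not shown are Pcdhga3, Pcdhga5 and Pcdhga9, of low level, which hold the gamma pattern in this window. Pcdhb8, of high level, is not shown either, and its pattern starts at -208 from the gene start, outside this window. The windows are chr18:29478748-29478847 for Pcdhb19, chr18:29379210-29379309 for Pcdhb9, chr18:29492119-29492218 for Pcdhb21, chr18:29454234-29454333 for Pcdhb15, chr18:29187748-29187847 for Pcdhb1, chr18:29794152-29794251 for Pcdhga7, chr18:29745089-29745188 for Pcdhga2 and chr18:29884145-29884244 for Pcdhgc3.
Pcdhb19: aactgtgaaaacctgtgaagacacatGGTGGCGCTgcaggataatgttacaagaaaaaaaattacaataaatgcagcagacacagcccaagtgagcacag
Pcdhb9: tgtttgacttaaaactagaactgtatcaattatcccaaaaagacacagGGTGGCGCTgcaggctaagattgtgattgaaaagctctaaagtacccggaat
Pcdhb21: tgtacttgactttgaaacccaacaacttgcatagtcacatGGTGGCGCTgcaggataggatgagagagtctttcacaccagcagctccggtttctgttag
Pcdhb15: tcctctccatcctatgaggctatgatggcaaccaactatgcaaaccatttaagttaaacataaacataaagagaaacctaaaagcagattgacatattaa
Pcdhb1: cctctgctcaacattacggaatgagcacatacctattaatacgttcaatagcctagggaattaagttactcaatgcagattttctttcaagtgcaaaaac
Pcdhga7: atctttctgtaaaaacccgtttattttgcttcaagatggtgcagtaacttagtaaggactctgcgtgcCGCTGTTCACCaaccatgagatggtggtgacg
Pcdhga2: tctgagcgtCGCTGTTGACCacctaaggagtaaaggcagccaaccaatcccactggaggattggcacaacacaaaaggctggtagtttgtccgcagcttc
Pcdhgc3: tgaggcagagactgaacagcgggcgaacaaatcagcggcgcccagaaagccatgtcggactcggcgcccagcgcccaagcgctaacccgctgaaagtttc
The beta pattern was absent from the whole windows of Pcdhb1 and Pcdhb15, and the gamma pattern from those of Pcdhga1 and Pcdhgc3. Such a match describes letters in a window and is not a measured binding site.

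Values are RPKM, read numbers scaled to gene length and to the mapped reads of the library, as the authors deposited them. RPKM is scaled to gene length, but the lengths used and the way reads were counted are not given. Levels of different genes can therefore be set side by side only roughly, and least of all those of clustered isoforms. The 4 libraries summed to between 388632 and 402100 RPKM, and their read depth is unknown. Of the 74 entries, 51 reached 1 RPKM in the ipsilateral and 49 in the contralateral library of 21 months, and 45 in the ipsilateral and 47 in the contralateral library of 13 months. Markers of neurons were all present in the table (12 of 12), as were those of oligodendrocytes (8 of 8) and astrocytes (6 of 6), as befits brain tissue. The pineal marker list (7 of 7 in the table, none at 0 in all libraries) summed to 0.70 RPKM ipsilateral and 2.04 RPKM contralateral at 21 months and to 1.24 RPKM ipsilateral and 28.2 RPKM contralateral at 13 months. The contralateral library of 13 months thus stood apart in pineal transcripts, and the 21 month comparison of sides does not use it.

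Ratios below are log2 ratios after adding 1 RPKM to both values, which understates the change of low genes. They were counted over 12160 genes whose mean over the 4 libraries reached 1 RPKM. Of the 74 entries 47 passed this filter. The entry just inside was Pcdhb4 with a mean of 1.02 RPKM and the one just outside Cdh15 with 0.973 RPKM. Pcdhb4 was also the 1 entry that passed with the mean of only 1 side at 1 RPKM or more, 1.06 RPKM ipsilateral and 0.98 RPKM contralateral. The 27 entries left out lay between 0 and 1.35 RPKM, and 11 of them stayed under 0.5 RPKM in every library.

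No member differed between the sides by a log2 ratio of 1, a 2-fold change, at either age. Across all genes 5.61% were higher ipsilaterally by as much at 21 months and 0.288% lower, and at 13 months 7.19% were higher and 0.0658% lower. At a 1.5-fold threshold there were also 0 members in either direction, against 13% of all genes higher and 1.79% lower at 21 months and 12.9% higher and 1.74% lower at 13 months. The members instead lay slightly lower on the bleeding side. At 21 months 34 of 47 had a ratio below 0, against 38.9% of all genes, and at 13 months 42 of 47, against 48.9% of all genes. After median-ratio scaling of the libraries these counts were 39 of 47, against 51.5% of all genes, at 21 months and 42 of 47, against 51.5%, at 13 months. The median ratio of the members was -0.10 at 21 months and -0.23 at 13 months, beside all-gene medians of 0.09 and 0.01. At both ages together, 31 of 47 lay below 0, against 26.5% of all genes, 2 lay above 0 (Pcdhb14 and Pcdhb19) and 14 had opposite signs. A ratio of -0.25 or lower at both ages, a limit chosen after seeing these data, was met by 9 of 47, against 4.52% of all genes: Cdh7, Cdh8, Cdh9, Cdh13, Cdh18, Cdh20, Pcdh17, Pcdh20 and Pcdhgb7. Without the filter 48 of all 74 entries were below 0 at 21 months (64.9%, against 37.9% of all entries in the table) and 61 of 74 at 13 months (82.4%, against 45.7%). The RPKM sum of the 74 entries was 280.4 ipsilateral and 297.1 contralateral at 21 months, and 242.7 ipsilateral and 295.7 contralateral at 13 months.

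Summed markers of neurons were also lower on the bleeding side, whereas those of microglia and macrophages were higher. The 12 neuron markers summed to 1622 RPKM ipsilateral and 1943 RPKM contralateral at 21 months, with 10 of 12 lower ipsilaterally. At 13 months they summed to 1460 RPKM ipsilateral and 2014 RPKM contralateral, with 12 of 12 lower. The 8 markers of microglia and macrophages summed to 468 RPKM ipsilateral and 125 RPKM contralateral at 21 months, and to 458 RPKM ipsilateral and 138 RPKM contralateral at 13 months. In bulk tissue fewer cells of a type and less RNA per cell cannot be told apart, and the part of cell makeup in the ratios of the cadherins was not tested.

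**Figure D1:**
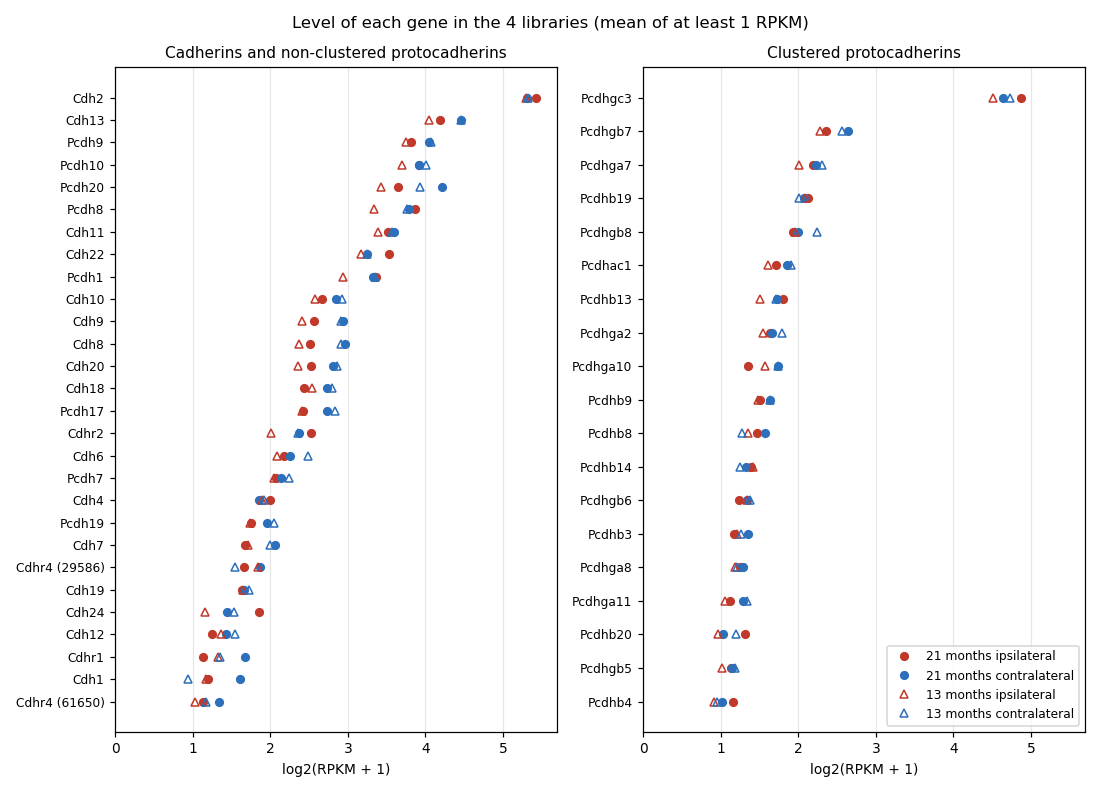
Level of each of the 47 entries past the filter, as log2(RPKM + 1) on the x axis, in the 4 libraries (ipsilateral red, contralateral blue, 21 months filled circles, 13 months open triangles), ordered by mean level. Cdh2 and Pcdhgc3 are the highest of their panels. For Pcdh20, Cdh8, Cdh9, Cdh20 and Cdh13, among others, both red points lie left of both blue points. How many of all genes have such an order was not counted. The digits after Cdhr4 end the identifier of its entries.

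A fit over both ages served as a second summary. The tool limma was applied to log2(RPKM + 1) of all 12160 genes with side and age as additive terms, two-sided, with Benjamini-Hochberg adjustment at 0.05. It has 1 residual degree of freedom, which is the difference of the side ratio between the ages, so the spread is borrowed largely from other genes. Of the 47 members 1 fell on the ipsilateral side in this fit, against 0.814% of all genes, and 0 rose, against 13.3% of all genes. At an unadjusted p under 0.05, limma had 5 lower members and 0 higher ones, against 4.47% and 18.9% of all genes.

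The member that fell was Pcdh20 (ENSRNOG00000013306, chromosome 15), a non-clustered protocadherin known in mice from the wiring of olfactory axons. It had 11.5 RPKM ipsilateral and 17.5 RPKM contralateral at 21 months, and 9.77 RPKM ipsilateral and 14.2 RPKM contralateral at 13 months. Both ipsilateral libraries lay below both contralateral ones. Other members had sides that did not overlap either, among them Cdh7, Cdh10, Cdh11 and Pcdh17. The share of all genes with such an order was not counted, here and for the genes below. For Pcdh20 the ratios were -0.57 and -0.50, and the limma change was -0.53 ± 0.17 (SE, 2 libraries per side), with an adjusted p = 0.036. The call was lost with 0.1 RPKM added in place of 1 (adjusted p = 0.065 in limma) and with a filter at 5 RPKM (adjusted p = 0.062 in limma). It was also lost with no filter (adjusted p = 0.14 in limma), and the adjusted p over the alternatives ran from 0.011 to 0.14.

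Type II classical cadherins, which in the brain mark particular circuits and their synapses, made the largest group outside the clusters. All 12 in the table passed the filter, 10 of 12 were below 0 at 21 months, against 38.9% of all genes, and 12 of 12 at 13 months, against 48.9%, with median ratios of -0.19 and -0.31. In limma 0 of 12 fell at an adjusted p under 0.05, against 0.814% of all genes, and 3 were lower at an unadjusted p under 0.05, against 4.47%. Cdh8 (ENSRNOG00000056643, chromosome 19) had 4.73 RPKM ipsilateral and 6.82 RPKM contralateral at 21 months, and 4.15 RPKM ipsilateral and 6.50 RPKM contralateral at 13 months. Its ratios were -0.45 and -0.54, and in limma the change was -0.50 ± 0.17 (SE, 2 libraries per side, adjusted p = 0.056). The ipsilateral libraries of Cdh8 both lay below the contralateral ones, and it was called in limma after median-ratio scaling of the libraries (adjusted p = 0.019), as was Cdh9 (adjusted p = 0.040), and with a prior variance that follows mean expression (Cdh8 adjusted p = 0.046). It was not called in limma with 0.1 RPKM added, with no filter or with the filter at 5 RPKM (adjusted p = 0.063, 0.15 and 0.087), and neither was Cdh9 (adjusted p = 0.11, 0.18 and 0.14).

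Cdh9 (ENSRNOG00000033837, chromosome 2), which in mice acts at synapses between mossy fibres and hippocampal pyramidal neurons, had 4.93 RPKM ipsilateral and 6.67 RPKM contralateral at 21 months. At 13 months it had 4.31 RPKM ipsilateral and 6.55 RPKM contralateral, and the ratios were -0.37 and -0.51. Cdh20 had 4.76 RPKM ipsilateral and 6.03 RPKM contralateral at 21 months, and 4.14 RPKM ipsilateral and 6.29 RPKM contralateral at 13 months. For both genes the sides did not overlap, and the limma changes of -0.44 and -0.40 did not pass (adjusted p = 0.10 and 0.15). Cdh7 had ratios of -0.39 and -0.27, Cdh18 of -0.29 and -0.26, Cdh10 of -0.19 and -0.35 and Cdh12 of -0.18 and -0.18, 21 months first. Cdh6, first known from kidney, had -0.07 at 21 months and -0.40 at 13 months, where its contralateral library was the highest of the 4, at 4.58 RPKM. The type II gene of the highest level was Cdh11, known from osteoblasts and other mesenchymal cells. It had 10.4 RPKM ipsilateral and 11.1 RPKM contralateral at 21 months and 9.49 RPKM ipsilateral and 10.9 RPKM contralateral at 13 months. The ratios of Cdh11, -0.08 and -0.18, and of Cdh19, -0.03 and -0.08, were close to 0.

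Cdh22 and Cdh24 departed from the other type II genes at 21 months. Cdh22 had 10.6 RPKM ipsilateral and 8.47 RPKM contralateral at 21 months, and 7.99 RPKM ipsilateral and 8.50 RPKM contralateral at 13 months. Cdh24 had 2.61 RPKM ipsilateral and 1.72 RPKM contralateral at 21 months, and 1.24 RPKM ipsilateral and 1.88 RPKM contralateral at 13 months. For both the ipsilateral library of 21 months was the highest of the 4, with ratios of 0.29 and 0.41, and the ipsilateral library of 13 months the lowest. Of all genes 33.3% were highest in the ipsilateral library of 21 months and 31.9% lowest in that of 13 months. The summed oligodendrocyte markers had the same highest and lowest library. Their sums were 2657 RPKM ipsilateral and 2274 RPKM contralateral at 21 months, and 1971 RPKM ipsilateral and 2392 RPKM contralateral at 13 months. Of these 8 markers 2 were lower ipsilaterally at 21 months and 7 at 13 months. The sum of the 6 astrocyte markers had this order too. It was 742 RPKM ipsilateral and 676 RPKM contralateral at 21 months, and 636 RPKM ipsilateral and 698 RPKM contralateral at 13 months. Of these 6 markers 2 were lower ipsilaterally at 21 months and 4 at 13 months. Single markers departed from the order of the sums. Ermn was highest in the contralateral library of 13 months and Gja1 in the ipsilateral one of 13 months. The neuron marker Slc17a7 also had the order of these sums, although the summed neuron markers did not. The part of these cells in the ratios was not tested, here and for other members with this order.

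**Figure D2:**
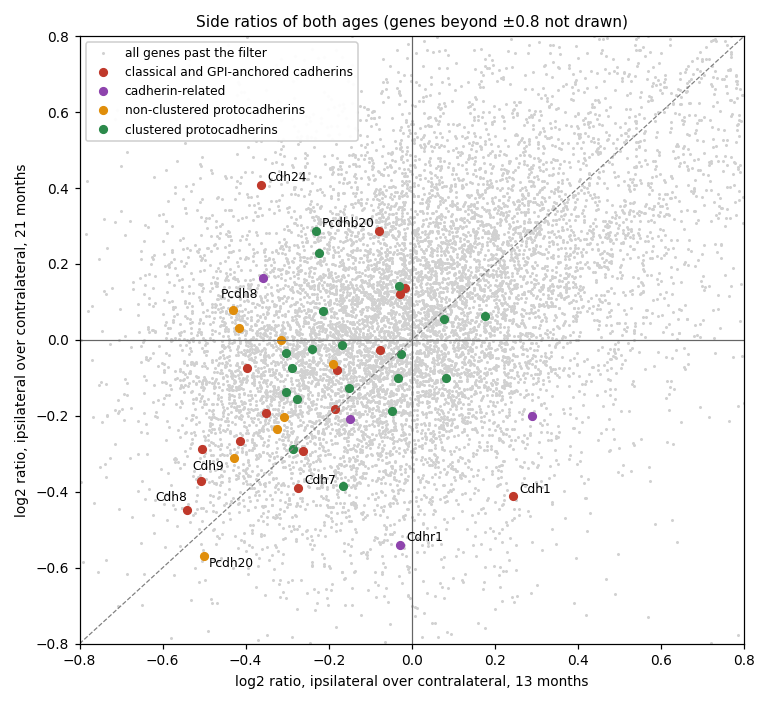
Side ratio (log2, ipsilateral over contralateral, 1 RPKM added) at 13 months (x axis) and 21 months (y axis), for the 47 members in colour by kind and for all genes past the filter in grey; the dashed line marks equal ratios. Most members lie in the lower left, Pcdh20 at -0.50 and -0.57, while Cdh24 (-0.36 and 0.41) and Cdh1 (0.24 and -0.41) lie in the opposite corners.

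The type I classical cadherins form epithelial, neural and muscle junctions. Cdh2 (ENSRNOG00000015602, chromosome 18), which encodes N-cadherin of neural junctions and synapses, had the highest level of all 74 entries. It had 42.2 RPKM ipsilateral and 38.7 RPKM contralateral at 21 months, and 38.4 RPKM ipsilateral and 39.2 RPKM contralateral at 13 months. Its ratios of 0.12 and -0.03 had opposite signs, and the limma change was not called. Cdh4, which encodes R-cadherin, was level in the same way, between 2.63 and 2.99 RPKM in the 4 libraries, with ratios of 0.14 and -0.02. Cdh1, which encodes E-cadherin of epithelia, had 1.30 RPKM ipsilateral and 2.06 RPKM contralateral at 21 months, and 1.26 RPKM ipsilateral and 0.91 RPKM contralateral at 13 months. The contralateral library of 21 months was the high one, and the ratios were -0.41 and 0.24. Pituitary markers (5 of 6 in the table, none at 0 in all libraries) summed to 4.49 RPKM ipsilateral and 11.0 RPKM contralateral at 21 months, and to 9.36 RPKM ipsilateral and 4.83 RPKM contralateral at 13 months. Choroid plexus markers (6 of 7 in the table, none at 0) summed to 1069 RPKM ipsilateral and 1801 RPKM contralateral at 21 months, and to 672 RPKM ipsilateral and 1225 RPKM contralateral at 13 months. The part of these tissues in the values of Cdh1 was not tested. Cdh3 and Cdh15, known from placenta and muscle, stayed between 0.43 and 1.11 RPKM.

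Cdh13 (ENSRNOG00000014371, chromosome 19), which encodes T-cadherin, a cadherin held in the membrane by a GPI anchor and a receptor of adiponectin, was the second highest cadherin. It had 17.3 RPKM ipsilateral and 21.0 RPKM contralateral at 21 months, and 15.5 RPKM ipsilateral and 20.9 RPKM contralateral at 13 months. The sides did not overlap, with ratios of -0.27 and -0.41, and limma did not call it (-0.34 ± 0.17, SE, 2 libraries per side, adjusted p = 0.24). Cdh17, the liver-intestine cadherin, was at 0.02 to 0.10 RPKM.

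Of the cadherin-related and other genes 4 of 8 entries passed the filter. Cdhr1, the photoreceptor cadherin, had 1.20 RPKM ipsilateral and 2.20 RPKM contralateral at 21 months, a ratio of -0.54, and 1.50 RPKM ipsilateral and 1.55 RPKM contralateral at 13 months, a ratio of -0.03. It was highest in the contralateral library of 21 months. The pineal markers, which were highest in the contralateral library of 13 months, are given above, and the part of that tissue in the values of Cdhr1 was not tested. Cdhr2, known from adhesion between intestinal microvilli, had 4.78 RPKM ipsilateral and 4.16 RPKM contralateral at 21 months, and 3.01 RPKM ipsilateral and 4.14 RPKM contralateral at 13 months. Its ipsilateral libraries were the highest and the lowest of the 4, with ratios of 0.16 and -0.36. The entries of Cdhr4 (ENSRNOG00000029586 and ENSRNOG00000061650, both on chromosome 8) had ratios of -0.20 and -0.21 at 21 months and of 0.29 and -0.15 at 13 months. They share a symbol and a chromosome, so reads could have been split between them and their single values are uncertain. Cdh23, which with Pcdh15 forms the tip links of hair cells in the inner ear, was at 0.12 to 0.25 RPKM, and Cdhr3, Cdhr5 and Cdh26 were at or under 0.36 RPKM.

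The delta protocadherins had low ratios at 13 months above all. Of delta1 genes 3 of 4 passed the filter, with median ratios of -0.06 at 21 months and -0.32 at 13 months. Of delta2 genes 4 of 5 passed, with medians of -0.10 and -0.37. Pcdh9, the delta1 gene of the highest level, had 13.1 RPKM ipsilateral and 15.6 RPKM contralateral at 21 months, and 12.4 RPKM ipsilateral and 15.8 RPKM contralateral at 13 months. Its sides did not overlap (-0.24 and -0.32). Pcdh17, which in mice lies at synapses of pathways between cortex and basal ganglia, had 4.38 RPKM ipsilateral and 5.67 RPKM contralateral at 21 months, and 4.32 RPKM ipsilateral and 6.16 RPKM contralateral at 13 months. The ratios were -0.31 and -0.43, and limma did not call it (adjusted p = 0.19). Pcdh19, an X-linked gene known from human epilepsy, had -0.20 and -0.31, and Pcdh7 had -0.06 and -0.19.

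Pcdh8, Pcdh10 and Pcdh1 were lower ipsilaterally at 13 months with no such difference at 21 months, and this contrast between the ages was not tested. Pcdh8 (ENSRNOG00000013101, chromosome 15), which encodes arcadlin, a protein that neuronal activity induces in rats, had 13.6 RPKM ipsilateral and 12.8 RPKM contralateral at 21 months. At 13 months it had 9.12 RPKM ipsilateral and 12.6 RPKM contralateral. The ipsilateral library of 13 months was the low one of the 4, and the ratios were 0.08 and -0.43. Pcdh1 had 9.25 RPKM ipsilateral and 9.03 RPKM contralateral at 21 months, and 6.68 RPKM ipsilateral and 9.24 RPKM contralateral at 13 months. Here too 3 libraries were alike and the ipsilateral one of 13 months was low. Pcdh10, which takes part in the elimination of synapses, had 14.1 RPKM on both sides at 21 months, and 11.9 RPKM ipsilateral and 15.1 RPKM contralateral at 13 months. Over the 47 members the ipsilateral library of 13 months was the lowest of the 4 for 32, against 31.9% of all genes, and the ipsilateral library of 21 months the highest for 12, against 33.3% of all genes. Pcdh11x, Pcdh12, Pcdh15 and Pcdh18 stayed at or under 0.81 RPKM.

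**Figure D3:**
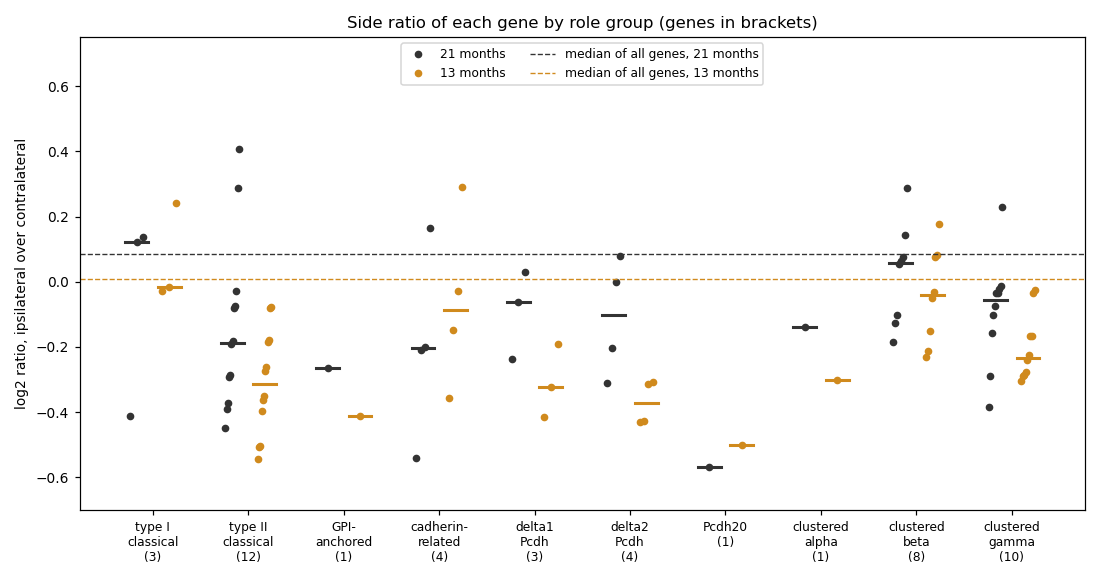
Side ratio (log2, ipsilateral over contralateral, 1 RPKM added) of each member past the filter by role group, at 21 months (dark) and 13 months (orange); thick bars are group medians and dashed lines the medians of all genes (0.09 and 0.01). The type II classical cadherins have medians of -0.19 and -0.31, and the clustered beta genes, at 0.06 and -0.04, lie nearest to the dashed lines among groups of more than 3 genes.

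Members that lie on the same chromosome were compared as a description. The 6 members of chromosome 2 past the filter, Cdh6, Cdh9, Cdh10, Cdh12, Cdh18 and Pcdh10, were all below 0 at both ages. Their medians were -0.19 at 21 months and -0.33 at 13 months. Those of chromosome 13, Cdh7, Cdh19 and Cdh20, were also all below 0. Of all genes 26.5% and of all members 31 of 47 were below 0 at both ages. All of these named genes but Pcdh10 are type II classical cadherins already counted above, so they are the same genes grouped anew. The 5 members of chromosome 15 had medians of -0.24 and -0.43, and the 21 members of chromosome 18, where the clusters lie, -0.03 and -0.17.

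Of the clustered protocadherins 35 entries were in the table, and 19 passed the filter. Their median ratios were -0.04 at 21 months and -0.17 at 13 months, against -0.20 and -0.31 for the 28 members outside the clusters. Pcdhgc3 (ENSRNOG00000019799), a gamma isoform of the C type, had by far the highest level of them. It had 28.3 RPKM ipsilateral and 24.03 RPKM contralateral at 21 months, and 21.8 RPKM ipsilateral and 25.7 RPKM contralateral at 13 months. Its ipsilateral libraries were the highest and the lowest of the 4, with ratios of 0.23 and -0.22. The next gamma isoform, Pcdhgb7, had 4.11 RPKM ipsilateral and 5.24 RPKM contralateral at 21 months, and 3.87 RPKM ipsilateral and 4.94 RPKM contralateral at 13 months, and its sides did not overlap (-0.29 and -0.29). Pcdhga7, at 3.02 to 3.96 RPKM, had ratios of -0.03 and -0.30, and Pcdhga10 had -0.38 and -0.17. Of the 10 gamma genes past the filter 9 were below 0 at 21 months, against 38.9% of all genes. At 13 months 10 were below 0, against 48.9% of all genes. The gamma medians were -0.05 and -0.23. Reads of exons that the gamma isoforms share could fall on several of these entries, so their signs may not be independent.

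The beta isoforms were lower in level and showed no common direction. Of 18 beta entries 8 passed the filter. Of these 8, 3 were below 0 at 21 months, against 38.9% of all genes, and 5 at 13 months, against 48.9%. The beta medians were 0.06 and -0.04. Pcdhb19, the highest, had 3.37 RPKM ipsilateral and 3.21 RPKM contralateral at 21 months, and 3.25 RPKM ipsilateral and 3.03 RPKM contralateral at 13 months, with ratios of 0.05 and 0.08. Pcdhb14 had 0.06 and 0.18, Pcdhb3 had -0.19 and -0.05, and Pcdhb9 had -0.13 and -0.15. Pcdhb20 had 1.49 RPKM ipsilateral and 1.04 RPKM contralateral at 21 months, and 0.95 RPKM ipsilateral and 1.29 RPKM contralateral at 13 months, with ratios of 0.29 and -0.23. Pcdhb1 was listed at 0 in 3 libraries and at 0.01 RPKM in the contralateral one of 13 months. Of the alpha cluster Pcdhac1, an isoform of the C type, had 2.28 RPKM ipsilateral and 2.61 RPKM contralateral at 21 months, and 2.05 RPKM ipsilateral and 2.76 RPKM contralateral at 13 months. Pcdha4 was at 0.53 to 0.72 RPKM. The RPKM sum of the clustered entries was 74.8 ipsilateral and 73.2 contralateral at 21 months, and 63.1 ipsilateral and 74.2 contralateral at 13 months.

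**Figure D4:**
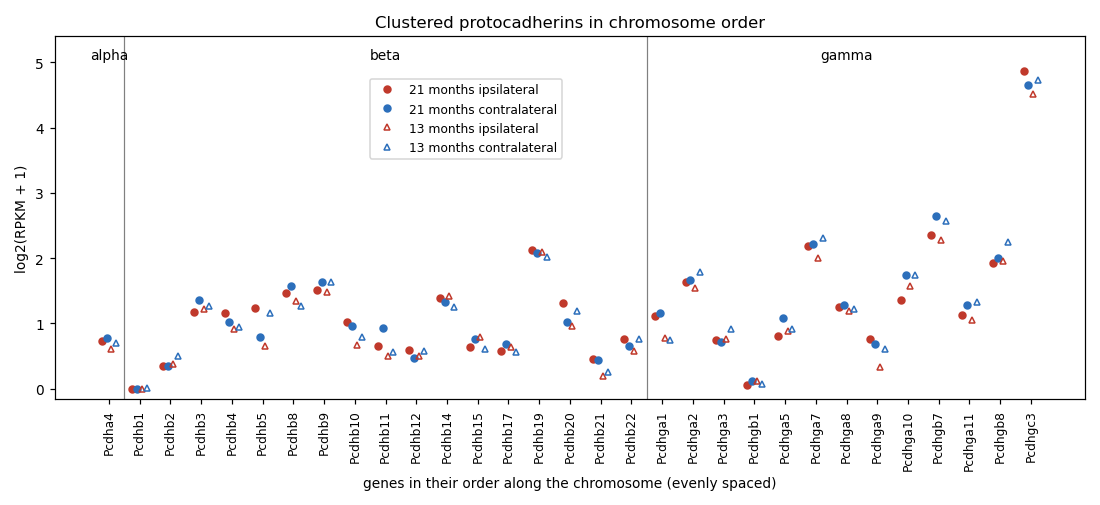
Level of 31 clustered protocadherins in log2(RPKM + 1), in their order along the chromosome in RefSeq and evenly spaced, in the 4 libraries (ipsilateral red, contralateral blue, 21 months filled circles, 13 months open triangles). Pcdhgc3, the last gamma gene drawn, stands far above all others, and Pcdhb1, the first beta gene, lies at 0.

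Isoforms of the alpha and gamma clusters end in shared constant exons, and the beta genes are close paralogs, so reads can fall on several entries. How the authors assigned such reads is not given in the sources used here, and the levels of single isoforms are therefore uncertain. Symbols within the clusters have also been reassigned between annotations, since RefSeq lists several of these symbols as older names of other isoforms. Set beside the promoters above, the 12 beta genes with the letters GGTGGCGCT had mean levels of 0.265 to 3.21 RPKM with a median of 1.11 RPKM, of which 4 have a symbol affected by such a change. The beta genes without these letters were Pcdhb1 at 0.0025 RPKM and Pcdhb15 at 0.625 RPKM. Among gamma genes the 9 with the gamma pattern had 0.52 to 3.55 RPKM, of which 2 (Pcdhgb8 and Pcdhga10) have such a symbol, as has the alpha gene Pcdha4. Those without it were Pcdhga1 at 0.948 RPKM and Pcdhgc3 at 24.96 RPKM. The highest and the lowest clustered gene were therefore among those without the pattern of their cluster. Not all clustered genes had a matched promoter, and the patterns were chosen after looking at these promoters. A link between pattern and level was not tested.

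The ages were compared on each side to ask how old rats differed from adult ones. On the ipsilateral side 0 of 47 members passed a log2 ratio of 1 in either direction, against 0.321% of all genes higher and 0.658% lower at 21 months. At a 1.5-fold threshold 1 member was higher (Cdh24), against 3.99% of all genes, and 0 lower, against 4.2%. The members had a median ratio of 0.10 beside 0.03 for all genes, and 11 of 47 were below 0, against 45.8% of all genes (17 of 47 and 53.8% after median-ratio scaling). The highest ratios were those of Cdh24 (0.69), Cdhr2 (0.53), Pcdh8 (0.53), Pcdh1 (0.42) and Pcdhgc3 (0.36), and the lowest those of Pcdhga10 (-0.21), Cdhr1 (-0.18), Cdhr4 (-0.17, the entry ENSRNOG00000029586), Cdh12 (-0.12) and Pcdhgb6 (-0.11). Oligodendrocyte markers (8 of 8 in the table) summed to 2657 RPKM at 21 months and 1971 RPKM at 13 months on this side, and neuron markers to 1622 RPKM at 21 months and 1460 RPKM at 13 months. The part of these cells in the age ratios was not tested.

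On the contralateral side the ages were close for most genes. Again 0 of 47 members passed a log2 ratio of 1, against 0.206% of all genes higher and 0.132% lower at 21 months. At a 1.5-fold threshold 1 member was higher (Cdh1), against 0.658% of all genes, and 0 lower, against 0.387%. The median ratio of the members was -0.02 and that of all genes -0.03, with 25 of 47 members below 0, against 58.4% of all genes. The highest ratios were those of Cdh1 (0.68), with 2.06 RPKM at 21 months and 0.91 RPKM at 13 months, Cdhr1 (0.33), Cdhr4 (0.32, the same entry), Pcdhb8 (0.30) and Pcdh20 (0.28). Pcdh20 had 17.5 RPKM at 21 months and 14.2 RPKM at 13 months on this side. The lowest ratios were those of Pcdhgb8 (-0.24), Cdh6 (-0.23), Pcdhb20 (-0.17), Pcdhga2 (-0.13) and Cdh12 (-0.12). Ependymal markers (5 of 6 in the table) summed to 23.0 RPKM at 21 months and 17.2 RPKM at 13 months, choroid plexus markers to 1801 and 1225 RPKM. Pineal markers summed to 2.04 RPKM at 21 months and 28.2 RPKM at 13 months on this side, pituitary markers to 11.0 and 4.83 RPKM. The part of these tissues in the age ratios was not tested.

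The partners of cadherins were described from lists of other genes. A list of catenins and related genes, which includes Ctnnbip1, an inhibitor of beta-catenin and no catenin itself, had 11 genes that all passed the filter. In limma 0 rose and 0 fell at an adjusted p under 0.05, against 13.3% and 0.814% of all genes. An unadjusted p under 0.05 was reached by 1 higher and 1 lower gene of 11, against 18.9% and 4.47% of all genes, namely Ctnna1 and Ctnna2. Ctnna2, the neuronal one, had 28.6 RPKM ipsilateral and 40.2 RPKM contralateral at 21 months, and 29.7 RPKM ipsilateral and 41.0 RPKM contralateral at 13 months, with ratios of -0.48 and -0.45 (adjusted p = 0.075 in limma). Ctnna1, the alpha-catenin of epithelia and many other tissues, had 62.7 RPKM ipsilateral and 43.0 RPKM contralateral at 21 months, and 56.8 RPKM ipsilateral and 42.7 RPKM contralateral at 13 months, with ratios of 0.53 and 0.41 (adjusted p = 0.074 in limma). Ctnna1 and Ctnna2 were not called, and a further alpha-catenin gene, Ctnna3, had ratios of 0.25 and -0.06 (adjusted p = 0.81 in limma). Jup had the second highest ratio of the list at 21 months (0.43) and Ctnnal1 the second lowest (-0.31).

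Of a list of other cadherin superfamily genes and desmosomal genes, which holds Pkp2 and Dsp although these encode no cadherins, 7 of 16 in the table passed the filter and 0 were called in limma, with 0 at an unadjusted p under 0.05. Their median ratios were -0.04 at 21 months and -0.40 at 13 months. At 13 months Clstn3 (-0.54), a calsyntenin of synapses, and Celsr2 (-0.53), a seven-pass cadherin of planar cell polarity, were the lowest, and Fat1 (0.04) was highest. Among 4 junction linker genes past the filter 0 were called in limma (0 at an unadjusted p under 0.05), with Vcl, which encodes vinculin, highest at 0.23 and 0.31. Adam10, the protease that sheds N-cadherin and gamma protocadherins, had ratios of 0.10 and 0.58 and was not called in limma (adjusted p = 0.26). Among 10 genes of chromatin and cohesin that act on the clusters 0 were called in limma (0 at an unadjusted p under 0.05), and Ctcf had ratios of -0.07 and 0.01. The cohesin genes Smc1a (-0.65 and 0.09) and Smc3 (-0.60 and 0.18) were lowest at 21 months. Among 7 genes of signalling from clustered protocadherins 0 were called in limma, and 1 of 7 was higher at an unadjusted p under 0.05 (18.9% over all genes), namely Rac1 at 0.63 and 0.33 (adjusted p = 0.074 in limma). At 13 months 5 of these 7 were below 0, against 48.9% of all genes, with a median of -0.26, and Cyfip2 (-0.50) and Wasf1 (-0.49) were the lowest.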

How the data were processed

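Per the labels' protocols, total RNA of 9 rat brains was combined in equal shares, and it is not stated if 9 brains served each library or all of them. Directional libraries of polyadenylated RNA were made. Per the submitters' processing notes, cutadapt, TopHat2 and edgeR were used, without versions or roles, and the build named is GRCh38, a human one, although the identifiers are rat Ensembl identifiers. Which build was used could not be settled, so chromosomes are those of the table. The authors deposited RPKM values rounded to 0.01. How reads were counted, which gene lengths were used and the depth: not given in the sources used here.

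Columns were matched to samples by the age and side code of the titles. Values were analysed as log2(RPKM + 1) for 12160 genes whose mean reached 1 RPKM, leaving out 5693. Single libraries were compared as ratios and counted past a log2 ratio of 1, with no test. As a second summary, limma 3.58.1 in R 4.3.3 fitted side and age, and was tested on simulated data. Members, lists and thresholds were chosen with earlier results of these data known. Another 1 entry of the name pattern is not reported here. Placeholder entries described as protocadherins (5) are no members. For listed genes with several entries the one with the highest mean was used.

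Genes named were the 12 of the highest mean, those called by limma, the 8 highest and lowest by the smaller side ratio with the same sign at both ages, the 5 highest and lowest age ratios on each side, and the extremes of each role group and list; other members are named for completeness. Alternatives were 0.1 RPKM added, no filter, a filter at a mean of 5 RPKM, median-ratio scaling, a limma trend and a 1.5-fold threshold.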

Additional observations from a re-analysis of the deposited data

Results flagged for a closer look

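Side ratios of opposite sign at the 2 ages that lie at least 0.5 apart on the log2 scale were picked out among the 47 members. Each ratio compares 1 library with 1 library, so these differences between ages were not tested. Cdh24 had the widest positive one, with a side ratio at 21 months that was higher than at 13 months by 0.77. Cdhr2 followed with 0.52, Pcdhb20 with 0.52 and Pcdh8 with 0.51. In these 4 genes the ipsilateral library of 21 months was the highest of the 4 libraries and that of 13 months the lowest. Cdh1 had a difference of -0.65, and its contralateral libraries were the highest at 21 months and the lowest at 13 months. Cdh24, Pcdhb20 and Cdh1 stayed under 2.7 RPKM, where the unknown read depth leaves single values least certain.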

How the results depend on the processing

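With 0.1 RPKM added in place of 1, the genes past a log2 ratio of -1 for side were 59 at 21 months and 34 at 13 months. For age there were then 88 higher and 139 lower genes on the ipsilateral side and 48 and 56 on the contralateral side, with 1 member (Cdh24) higher ipsilaterally and 1 (Cdh1) contralaterally. The same members, 1 on each side, were higher at 21 months at a 1.5-fold threshold. With a mean of at least 5 RPKM, 413 genes were higher for side at 21 months and 494 at 13 months, with 3 lower at 13 months. For age 25 genes were then higher on the ipsilateral side and 16 on the contralateral side, where 9 were lower. The 16 members left had median side ratios of -0.21 at 21 months and -0.38 at 13 months. With no filter the median age ratio of the members on the contralateral side was 0.0050, against -0.02 with it. Median-ratio scaling moved the all-gene median at 21 months to -0.01, where 39 of 47 members were below 0, against 51.5% of all genes.

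In limma, 0 genes rose and 0 fell with no filter, whereas an unadjusted p under 0.05 was reached by 2641 higher and 719 lower genes (0 and 10 members). With the filter at 5 RPKM 841 genes rose and 40 fell, and scaling 271 that fell. Members that fell were 0 with 0.1 RPKM added, 0 with no filter and 0 with a mean of at least 5 RPKM (6, 10 and 5 at an unadjusted p under 0.05). They were 3 with scaling and 2 with the trend. The causes were not tested, other than that fewer genes enter under the stricter filter. The limma fit with age as a term already compares the sides within each age, and no other pairing was tried, since the labels carry no replicate numbers. Unknown depth limits entries near 1 RPKM most.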
